A study of Mus musculus with 6 samples.

Results

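The genes described here are Kap, Odc1, Gusb, Azgp1, Prlr and Esr1, which belong to the androgen and sex hormone responses of the mouse kidney. They were taken by gene symbol from the 54838 gene identifiers of the count tables, and each of the 6 symbols matched 1 identifier. They were chosen by their role and with their count differences between the groups already known, so those differences are given as a description. Counts of calls among them are set beside the share called over all genes, and nothing is read from them. RNA was sequenced from glomeruli, the filtering units of the kidney, isolated from 3-week-old mice, with 1 library per mouse. The 3 libraries labelled CTRL (animals 157, 162 and 163) carry the genotype wild type, and the 3 labelled KO (animals 146, 147 and 148) carry bPIX -/-, which the study describes as a loss in podocytes. bPIX is the product of Arhgef7, an exchange factor for small GTPases, and podocytes are the epithelial cells on the outer side of the glomerular capillaries. The sources used here name neither strain, sex, Cre driver nor any treatment, and do not say whether the wild-type animals carry a floxed allele or Cre. Values in sets of 3 follow the order of animals 157, 162 and 163 for CTRL and 146, 147 and 148 for KO.

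Androgens induce a set of transcripts in proximal tubule cells of the mouse kidney, and they do so most strongly after puberty. Kap, which encodes a small secreted protein of these cells, Odc1 and Gusb are classical markers of that induction. Prolactin and oestrogen act on kidney cells as well, through the receptors encoded by Prlr and Esr1.

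For all 6 libraries the file name gives the opposite group to the sample label. The sample labels set the groups here, "under CTRL" and "under KO" below mean libraries so labelled, and if the file names were right every difference would have the opposite sign. The targeted gene did not settle this: Arhgef7 stood at 91.9, 94.1 and 88.4 CPM (the usual unit of depth-scaled counts, here with TMM-scaled library sizes) under CTRL and at 132.8, 89.6 and 85.9 CPM under KO. Library depth was 39841396 to 51917945 gene counts. All 6 libraries carried Y-linked transcripts and almost no Xist, the RNA that coats the inactive X chromosome. Ddx3y lay between 55.3 and 71.1 CPM, Uty between 15.6 and 19.8, Kdm5d between 12.5 and 16.7 and Eif2s3y between 33.3 and 47.2, while Xist was counted 1 to 4 times per library. edgeR called none of the 4 Y-linked genes. Under KO, Ddx3y was higher and Uty lower with no overlap between groups, as were 21.9% and 19.6% of all genes tested.

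Tubule transcripts were less abundant, and glomerular ones more abundant, in the libraries labelled KO. The summed level of 18 proximal tubule markers was 23479 to 25332 CPM under CTRL, against 12190, 17733 and 20168 CPM in KO 146, 147 and 148. All 18 were negative in log2 fold change (median -0.52), and in 15 the groups did not overlap, against 19.6% of all genes tested. The 12 podocyte markers summed to 957 to 1178 CPM and to 8807, 3705 and 2395 CPM, the 10 endothelial markers to 747 to 879 and to 5111, 2268 and 1510, and the 10 mesangial and smooth muscle markers to 258 to 272 and to 1834, 726 and 494. None of the markers in these 4 lists had a count of 0 in any library, and edgeR called none. KO 146 thus had the highest glomerular and the lowest tubule markers of the 6. The 11 markers of loop, distal tubule and collecting duct had a median of -0.41, and the 10 leukocyte and 5 red cell markers overlapped between the groups. The part of this tubule and glomerular content in the differences described next was not tested, beyond the values set against it further on. In such bulk samples, fewer cells of a type and less RNA per cell cannot be told apart.

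The 6 genes spanned more than 4 orders of magnitude in level. Per kilobase of exon, Kap had by far the highest level, at 17764 ± 942 CPM per kb under CTRL and 10130 ± 2976 under KO (mean ± SD over 3 libraries). Odc1 followed at 438 ± 31.8 and 251 ± 83.2, and Gusb at 7.99 ± 0.47 and 7.69 ± 0.19. The other 3 were low. Among the libraries labelled CTRL the order was Azgp1 (1.48 ± 0.32), Prlr (0.854 ± 0.134) and Esr1 (0.657 ± 0.116), and the values of Prlr and Esr1 overlapped. Among those labelled KO, Prlr stood at 1.27 ± 0.58, Esr1 at 0.455 ± 0.029 and Azgp1 at 0.0628 ± 0.0098, with no overlap between neighbours. Azgp1 therefore moved from the fourth to the last place.

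**Figure D1:**
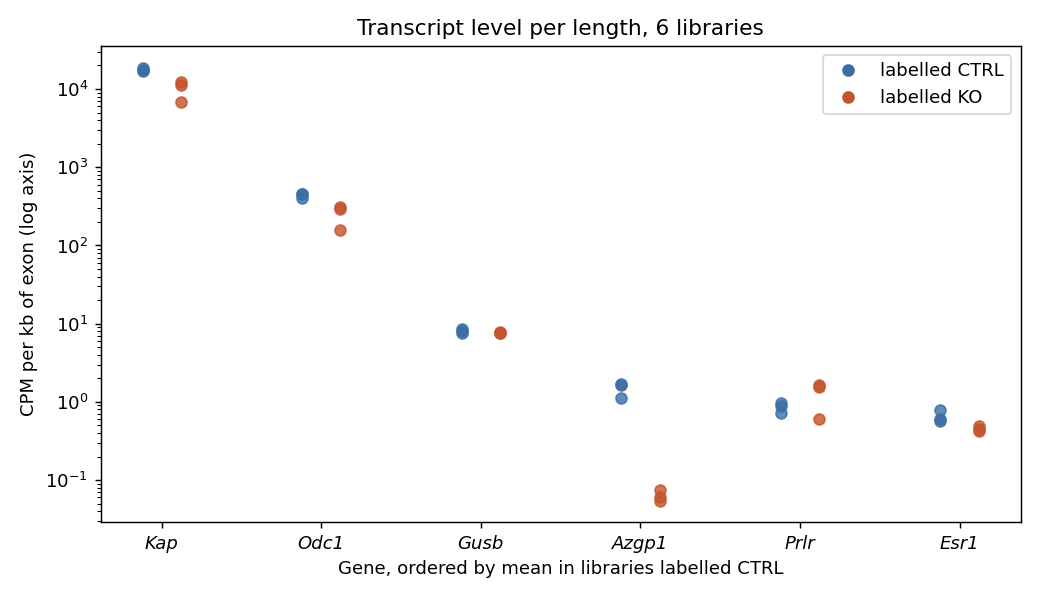
Transcript level of the 6 genes per kilobase of exon, in CPM per kb on a log axis, with 1 point per library and colours for the label. Kap is the highest gene in every library, Gusb varies least between the groups, while Azgp1 is the gene whose groups are furthest apart.

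The 250 bases upstream of the RefSeq start are given for some of these genes. They are the most abundant gene, the gene that shared its ratio between groups, and the gene of largest difference. The sequences are from RefSeq on GRCm38.p6, given 5′ to 3′ on the gene's strand, and capitals mark a TATAAA match.
Kap, chr6:133853668-133853917, minus strand: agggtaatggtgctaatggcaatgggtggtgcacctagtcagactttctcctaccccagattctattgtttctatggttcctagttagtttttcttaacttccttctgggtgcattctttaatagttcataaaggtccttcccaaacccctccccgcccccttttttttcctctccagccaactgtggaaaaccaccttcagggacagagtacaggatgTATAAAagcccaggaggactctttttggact
Odc1, chr12:17544623-17544872, plus strand: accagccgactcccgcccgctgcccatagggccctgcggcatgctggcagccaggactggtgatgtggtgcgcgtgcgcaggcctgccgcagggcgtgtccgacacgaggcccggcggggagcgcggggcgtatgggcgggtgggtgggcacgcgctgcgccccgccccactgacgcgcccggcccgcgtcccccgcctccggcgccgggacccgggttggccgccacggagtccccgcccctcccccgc
Azgp1, chr5:137981271-137981520, plus strand: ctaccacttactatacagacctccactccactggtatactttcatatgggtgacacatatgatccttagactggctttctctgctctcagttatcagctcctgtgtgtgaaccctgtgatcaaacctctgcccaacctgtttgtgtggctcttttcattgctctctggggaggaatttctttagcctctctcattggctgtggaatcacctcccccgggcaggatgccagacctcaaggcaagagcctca

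The Kap window had a G and C content of 45.6% and a TATAAA match that began 31 bases before the start. On either strand and at any place, TATAAA was in 12.4% of 32851 windows of this length. The Odc1 window had a G and C content of 80%, and the Azgp1 window 49.6%, and neither held TATAAA. The GENCODE starts of Kap and Odc1 lie further upstream, inside these windows, so the Kap match lies inside its GENCODE gene. The 6 genes have 9 such windows in RefSeq. TGTTCT, the half-site of glucocorticoid-class steroid receptors, was searched on both strands and was found in 1 of the 9, a RefSeq start of Prlr, against 16.1% of all windows. The bases just after that start are not an unbroken stretch of any GENCODE transcript of Prlr. CACGTG, the E-box bound by MYC and its relatives, was in none of the 9 and in 6.02% of all windows. The oestrogen response element palindrome, by its consensus letters, was in none of the 9 and in 0.0639% of all. A missing match says only that these letters are not in the window.

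Kap and Odc1, the high-level androgen markers, were both lower in the libraries labelled KO and by nearly the same ratio. Kap (ENSMUSG00000032758, chromosome 6, 133849851 to 133853762, minus strand, GRCm38) stood at 12006, 12372 and 13298 CPM under CTRL. Under KO it stood at 4773, 7973 and 8740 CPM. Every library labelled CTRL was above every library labelled KO, and KO 146 was the lowest. On the log2 scale KO minus CTRL was -0.81 (SE 0.26), and the mean in the libraries labelled KO was 0.57 of that in CTRL. Kap was the seventh or eighth most counted gene in each of the 6 libraries, with 1.14% to 1.27% of gene counts under CTRL and 0.543% to 0.858% under KO.

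Odc1 encodes ornithine decarboxylase, the first enzyme of polyamine synthesis (ENSMUSG00000011179, chromosome 12, 17544794 to 17551505, plus strand). It stood at 1533, 1570 and 1367 CPM under CTRL and at 529, 1043 and 993 CPM under KO. The groups did not overlap, and KO 146 was again the lowest. The log2 fold change was -0.80 (SE 0.26), and the ratio of means was 0.57 as for Kap. Without KO 146 the values were -0.60 for Kap and -0.56 for Odc1. Reads that align to more than 1 place are absent from the counts, so a gene with processed copies elsewhere in the genome can be undercounted.

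Gusb, which encodes the lysosomal enzyme beta-glucuronidase, did not separate the groups (ENSMUSG00000025534, chromosome 5, 129989011 to 130003049, minus strand). Its level was 36.4, 38.4 and 34.2 CPM under CTRL and 35.0, 34.1 and 35.9 CPM under KO. The 6 values lay within a narrow band and the groups overlapped. The log2 fold change was -0.054 (SE 0.077), and it was 0.084 with library totals in place of TMM scaling, so its sign depended on the scaling. Library totals moved the median of all genes from -0.0062 to 0.132, and with them edgeR called 50 genes lower and 114 higher in place of 72 and 101.

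Azgp1 had the largest difference of the 6. It encodes zinc-alpha-2-glycoprotein, a secreted protein with a fold like that of MHC class I molecules (ENSMUSG00000037053, chromosome 5, 137981520 to 137990233, plus strand). It was counted 117, 101 and 79 times under CTRL, against 7, 4 and 4 times under KO. In CPM these are 2.72, 2.65 and 1.78 against 0.119, 0.0965 and 0.0880. The 3 libraries labelled KO were close to each other, and all lay far below the lowest library labelled CTRL. The mean was 23.6 times higher in the libraries labelled CTRL, and the log2 fold change was -4.51 (SE 0.30), the fifth lowest of 17086 tested genes. Summed over the group, the 15 counts in the libraries labelled KO have an exact Poisson 95% interval of 8.4 to 24.7, and the 297 in those labelled CTRL one of 264 to 333, which cover counting error only. Azgp1 reached the minimum level of the fit, 0.218 CPM, in all 3 CTRL-labelled libraries and in 0 KO-labelled ones, so it entered only through the group where it was high. At this level it contributed little RNA: in the libraries labelled CTRL it was the 11865th to 12633rd most counted gene.

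Prlr, the receptor for prolactin, was the only member with a higher mean in the libraries labelled KO (ENSMUSG00000005268, chromosome 15, 10177238 to 10349180, plus strand). It stood at 10.9, 13.4 and 15.0 CPM under CTRL and at 9.13, 25.4 and 23.7 CPM under KO. KO 147 and 148 were above all libraries labelled CTRL, and KO 146 was the lowest of the 6. The log2 fold change was 0.56 (SE 0.37), 0.90 without KO 146 and 0.32 without KO 147. Without KO 146, its lowest library, edgeR called Prlr higher, in a fit that called 10.5% of all genes higher. One other annotated gene, Gm21973, shares 203 exon bases with Prlr on the same strand and was counted at most once in a library.

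Esr1, the oestrogen receptor alpha gene, was lower in all 3 libraries labelled KO (ENSMUSG00000019768, chromosome 10, 4611593 to 5005614, plus strand). It stood at 7.88, 10.8 and 8.27 CPM under CTRL and at 5.86, 6.13 and 6.65 CPM under KO. The groups did not overlap, and the libraries labelled KO were closer together (SD 0.398) than those labelled CTRL (SD 1.58). The log2 fold change was -0.53 (SE 0.16), -0.38 without CTRL 162, the highest library, and -0.50 without KO 146.

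**Figure D2:**
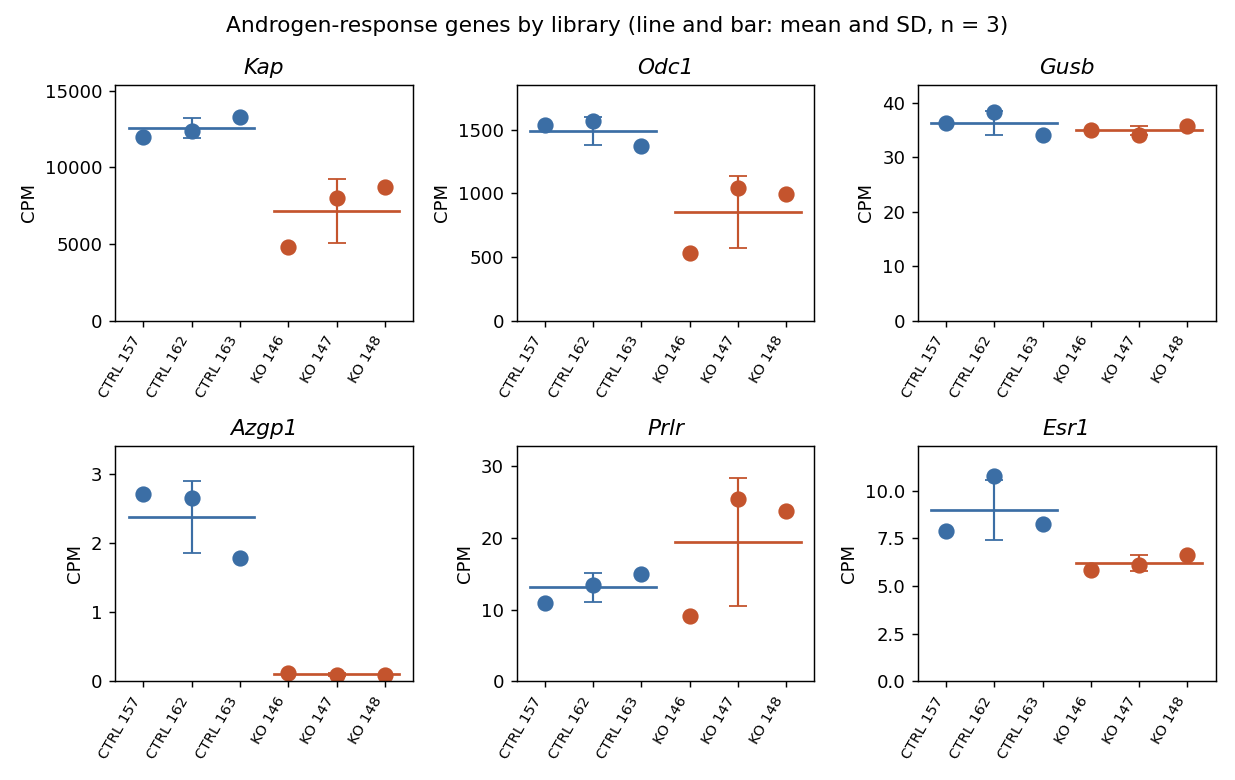
Level of each gene in CPM (axes start at 0 and differ between panels) in the 6 libraries, with group mean and SD. Kap, Odc1, Azgp1 and Esr1 are lower in every library labelled KO than in any labelled CTRL, Gusb is level, and Prlr is high in KO 147 and 148 but not in KO 146.

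Of the 6, all passed the filter on low counts, 4 were lower with no overlap between groups, and edgeR's quasi-likelihood test with Benjamini-Hochberg adjustment over all genes called 1, Azgp1, lower. Over all 17086 genes tested, 0.421% were called lower, 0.591% higher and 1.01% in all, while 19.6% were lower and 21.9% higher under KO with no overlap between groups. Since the members were chosen with this comparison known, nothing is read from these counts. DESeq2 called 4 lower, against 5.89% of its genes, and limma-voom 1 lower, against 0.363%. The edgeR call of Azgp1 was lost without CTRL 157, CTRL 162 or KO 147, where its log2 fold change was -4.41, -4.43 and -4.47. These fits called only 0.00569%, 0.0057% and 0.00574% of all genes lower. Without KO 146 edgeR called 4 of the 6, with Kap, Odc1 and Azgp1 lower and Prlr higher, against 6.62% of all genes lower and 10.5% higher in that fit. With no filter on low counts it called Kap and Azgp1 lower, against 1.31% of all genes.

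The members were also set against the tubule content of each library. The mean of the 18 proximal tubule markers was 9.90, 9.81 and 9.79 log2 CPM under CTRL, against 8.82, 9.38 and 9.54 under KO. Relative to it, Kap was lower by 0.27 on the log2 scale in the libraries labelled KO, with values of 3.66 to 3.91 against 3.40 to 3.58 and no overlap. Odc1 differed by -0.28 and its groups overlapped. The difference between groups for these genes was thus smaller on this scale than in CPM. Azgp1 still differed by -3.46 (groups apart, on values to which a prior count of 2 was added), while Esr1 differed by 0.070 with overlapping groups.

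Prlr and Gusb lay higher relative to the tubule markers in every library labelled KO. For Prlr the values were -6.44, -6.06 and -5.88 under CTRL and -5.63, -4.71 and -4.97 under KO, a difference of 1.03. For Gusb the difference was 0.53, with KO 146 the highest at -3.69. The subtracted marker mean was lower in every library labelled KO and lowest in KO 146, which by itself raises such values. Gusb was level in CPM, so its difference follows from the subtraction, as part of that of Prlr does. Gusb is also expressed outside the tubule, as most cells have lysosomes, and which cells its reads came from was not tested. With the tubule mean as a covariate in edgeR the log2 fold change was -0.16 for Kap, -0.041 for Odc1, -0.037 for Gusb, -4.58 for Azgp1, 1.60 for Prlr and -0.43 for Esr1. The covariate itself did not overlap between the groups, so in part it and the label cannot be told apart.

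**Figure D3:**
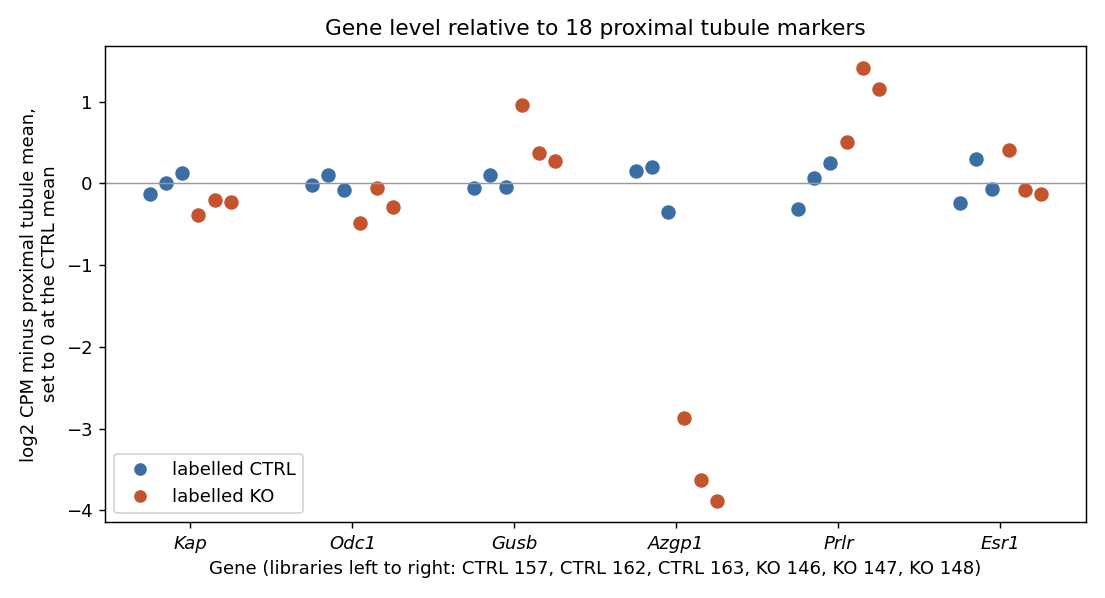
Level of each gene in log2 CPM minus the mean of 18 proximal tubule markers in the same library, set to 0 at the mean of the libraries labelled CTRL. Kap and Odc1 lie slightly below 0 in the libraries labelled KO, Gusb and Prlr above it, Esr1 around it, and Azgp1 more than 2 log2 units below it.

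A list of 16 other genes known as male-enriched or androgen-induced in the adult mouse kidney was lower throughout. All 16 were below 0 in log2 fold change (median -0.96), against -0.0062 for all genes tested. In 15 the groups did not overlap, where 19.6% of all genes tested were lower with no overlap. edgeR called 5 lower and 0 higher, where 0.421% of all genes were called lower, and 11 did not pass. The list was written with some of these results known, so its direction is not independent evidence. Acsm3, a medium-chain acyl-CoA synthetase, fell from 360 ± 59.0 to 154 ± 9.53 CPM (mean ± SD over 3 libraries; log2 fold change -1.23, SE 0.14, edgeR adjusted p = 0.0311). The transporter Slc7a13 of the late proximal tubule fell by 0.97 on the log2 scale (SE 0.12, edgeR adjusted p = 0.0332).

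Of the 5 called genes of this list, the cytochrome P450 genes Cyp4a12a and Cyp2d9 had the largest fold changes. Cyp4a12a, a fatty acid hydroxylase gene induced by androgens, stood at 72.7, 63.7 and 37.98 CPM under CTRL and at 4.78, 9.94 and 10.5 CPM under KO (log2 fold change -2.79, SE 0.37, edgeR adjusted p = 0.0357). Cyp2d9, a steroid hydroxylase gene, stood at 10.4, 18.4 and 18.4 CPM and at 3.13, 1.33 and 2.53 CPM (log2 fold change -2.74, SE 0.37, edgeR adjusted p = 0.0361). Both have close paralogs, and reads shared with them are not in the counts. The abundant Cyp4b1 fell from 1963 ± 80 to 913 ± 139 CPM (log2 fold change -1.10, SE 0.15, edgeR adjusted p = 0.0371). The other abundant members had values of -0.48 (Cndp2, a dipeptidase, edgeR adjusted p = 0.131) and -0.99 (Akr1c21, a hydroxysteroid dehydrogenase, edgeR adjusted p = 0.0796). Proximal tubule markers moved the same way in the same libraries, and with their mean as a covariate 2 of the 16 were still called, Cyp4b1 (-0.76, edgeR adjusted p = 0.0054) and Slc7a13 (-0.86, edgeR adjusted p = 0.0245). Over all alternatives their adjusted p ranged from 3.56e-11 to 0.198 and from 1.46e-09 to 0.177. No member of this list was called without CTRL 157, 162, 163 or KO 147, fits that called 0.00569% to 0.0284% of all genes lower. Without KO 146 and KO 148, 12 and 10 were called lower, where 6.62% and 5.4% of all genes were called lower.

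A list of 9 genes written as female-enriched in the adult kidney was mixed in direction. Of these, 5 were negative and 4 positive with a median of -0.63. All 5 negative genes were lower with no overlap between groups, where 19.6% of all genes tested were. edgeR called 2 lower and 0 higher, where 0.421% of all genes were called lower and 0.591% higher. Cyp2a4, another steroid hydroxylase gene with a close paralog, stood at 24.7, 50.1 and 43.2 CPM under CTRL and at 4.20, 4.39 and 7.42 CPM under KO (log2 fold change -2.88, SE 0.34, edgeR adjusted p = 0.0329). Aadat, an aminotransferase of tryptophan and lysine breakdown, fell from 102 ± 6.42 to 54.7 ± 5.74 CPM (log2 fold change -0.90, SE 0.10, edgeR adjusted p = 0.0311), and was called with the tubule covariate too (-0.88, edgeR adjusted p = 0.0182, and 7.26e-09 to 0.17 over all alternatives). Cyp2a4 was not called with that covariate (-2.498, edgeR adjusted p = 0.294, and 4.38e-15 to 0.294 over all alternatives). Neither was called without CTRL 157, 162, 163 or KO 147, fits that called 0.00569% to 0.0284% of all genes lower. Without KO 146 and KO 148, 4 and 3 genes of the list were called lower, against 6.62% and 5.4% of all genes. Without KO 148, 1 gene of the list was also called higher, against 12.9% of all genes. The abundant Acsm2 and Hao2, enzymes of fatty acid and hydroxy acid metabolism, had values of -0.63 and -1.09 (edgeR adjusted p = 0.122 and 0.0756). The positive genes were Cyp4a14 (1.25), Abcc3 (0.80), Slc7a12 (0.52) and Kynu (0.084), with edgeR adjusted p = 0.204, 0.144, 0.313 and 0.873. Among these only Abcc3 did not overlap between groups, where 21.9% of all genes tested were higher with no overlap. Kynu was called higher with the tubule covariate (0.96, edgeR adjusted p = 0.0441, and 0.0441 to 0.984 over all alternatives). No library here lacked Y-linked RNA, so neither list was compared between the sexes. The placing of single genes in a list, Cyp2a4 among them, was therefore not checked in these data.

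Of 15 tested genes for other steroid receptors and steroid enzymes, 12 were negative with a median of -0.35. edgeR called 1 lower and 0 higher, where 0.421% of all genes were called lower and 0.591% higher. The called gene was Srd5a2, which encodes a 5-alpha-reductase that turns testosterone into dihydrotestosterone. It stood at 5.69, 4.91 and 4.52 CPM under CTRL and at 1.88, 2.29 and 2.18 CPM under KO (log2 fold change -1.25, SE 0.17, edgeR adjusted p = 0.0357). With the tubule covariate its value was -1.01 and it was not called (edgeR adjusted p = 0.0914, and 5.03e-08 to 0.196 over all alternatives). No gene of this list was called without CTRL 157, 162, 163 or KO 147, fits that called 0.00569% to 0.0284% of all genes lower. Without KO 146 and KO 148, 5 and 4 were called lower, against 6.62% and 5.4% of all genes. The most abundant genes of the list were the hydroxysteroid dehydrogenase genes Hsd17b11, Hsd11b2 and Hsd17b4, with values of -0.36, -0.54 and -0.42 (edgeR adjusted p = 0.145, 0.13 and 0.082).

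With all 6 libraries, TMM scaling and the filter, edgeR called no gene in the lists around Odc1, Prlr and Gusb. Without KO 146 it called 3 polyamine genes lower, 1 prolactin receptor signalling gene lower and 1 higher, and 4 lysosomal genes lower and 2 higher. That fit called 6.62% of all genes lower and 10.5% higher. Without KO 148 it called 1 lower and 1 higher in each of the first 2 lists, and 2 lysosomal genes lower and 1 higher, against 5.4% and 12.9% of all genes. With no filter it called 1 prolactin receptor signalling gene lower and 1 higher, and 1 lysosomal gene lower, against 1.31% and 1.41%. It also called 1 lysosomal gene higher with library totals and 2 with the tubule covariate, against 0.667% and 1.2% of all genes. Of 13 polyamine genes around Odc1, 10 were negative with a median of -0.15. The antizyme genes Oaz1 and Oaz2, whose products lead ornithine decarboxylase to degradation, had values of -0.15 and 0.23, and Sat1, which acetylates polyamines, of -0.18 (edgeR adjusted p = 0.401, 0.262 and 0.502). At an unadjusted edgeR p below 0.05, 4 polyamine genes were lower and 1 higher, against 11.8% and 17.5% of all genes. DESeq2 called 4 lower and 0 higher, against 5.89% and 12.1% of its genes, and limma-voom 0.

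Of 10 tested genes of prolactin and growth hormone receptor signalling, 4 were negative and 6 positive, with a median of 0.16. The growth hormone receptor gene Ghr, related to Prlr in structure, had a value of -0.61 (edgeR adjusted p = 0.0777), Ptpn11 of 0.20 and the transcription factor gene Stat3 of 0.26 (edgeR adjusted p = 0.358 and 0.119). Unadjusted edgeR p values below 0.05 were found for 1 lower and 2 higher genes, against 11.8% and 17.5% of all genes. DESeq2 called 1 lower and 1 higher, against 5.89% and 12.1% of its genes, and limma-voom 0. Of 19 lysosomal hydrolase genes that share the compartment of Gusb, 15 were negative with a median of -0.16. The abundant Neu1, a sialidase gene, and Fuca1, a fucosidase gene, had values of -0.52 and -0.33 (edgeR adjusted p = 0.0991 and 0.192). In this list 4 were lower and 2 higher at an unadjusted edgeR p below 0.05, DESeq2 called 3 lower and 2 higher, and limma-voom 0. The shares over all genes are those just given.

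**Figure D4:**
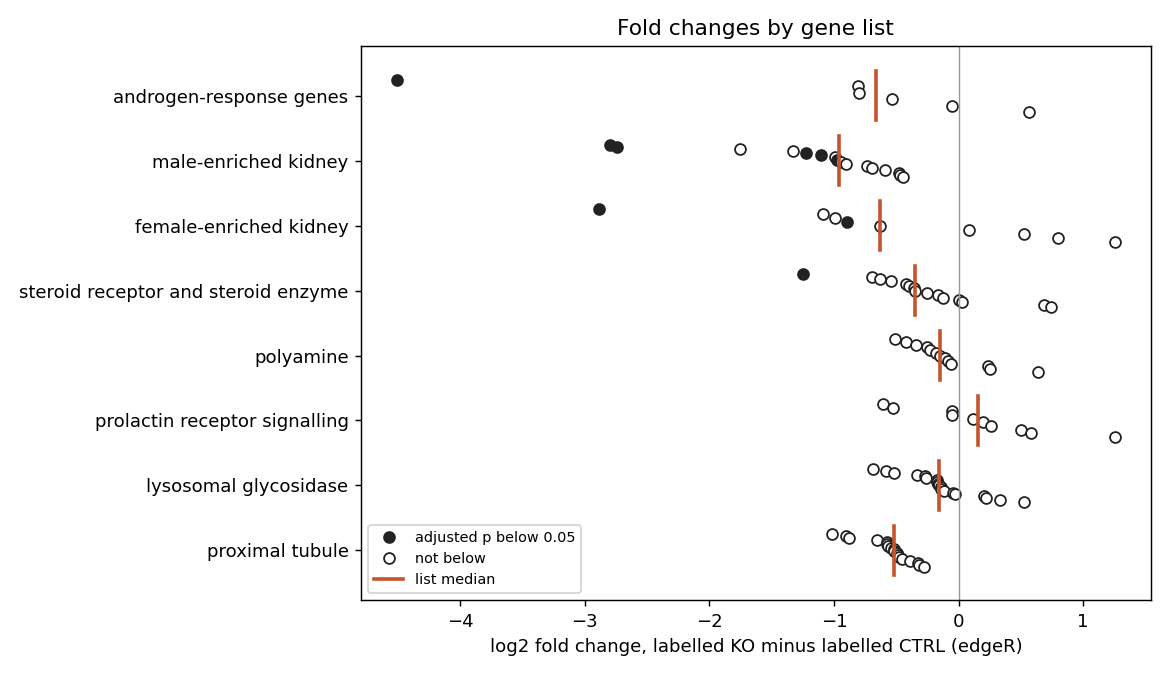
Log2 fold change (KO minus CTRL, by label) of the 6 genes, of the genes in 6 lists and of 18 proximal tubule markers, with called genes filled and the median of each list as a bar. The male-enriched list has a median of -0.96 and 5 called genes, and the proximal tubule markers a median of -0.52 and none.

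The genes most like each member across the 6 libraries were sought among 10867 other protein-coding genes that averaged 5 CPM or more, by Pearson's r of log2 CPM over 6 libraries. These values describe the libraries, which share depth and tissue content, and carry no p. For Kap they were Serpinf2, Cldn12 and Etfrf1 (r = 0.998 for each). For Odc1 they included Pbld1 and Ppp1r16a (r = 0.998 and 0.997). The genes nearest to Kap had smaller log2 fold changes than Kap itself, at -0.63, -0.47 and -0.32, and Pbld1 and Ppp1r16a stood at -0.49 and -0.35.

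For Azgp1 the nearest were Hpd, Msmo1 and Pyroxd1 (r = 0.997, 0.997 and 0.996). Azgp1 had only 4 to 7 counts in each library labelled KO, so a high r with it mainly picks genes whose groups are apart. Hpd, an enzyme of tyrosine breakdown, had a log2 fold change of -1.90 and Msmo1, an enzyme of cholesterol synthesis, of -0.54, while Pyroxd1 stood at -0.44. For Esr1 they were Sardh, Itih5 and Pdcd2l (r = 0.990, 0.988 and 0.988). Sardh, the mitochondrial sarcosine dehydrogenase gene, was highest in CTRL 162 at 308 CPM, as Esr1 was. For Prlr they included Grik5 and Hddc2 (r = 0.988 and 0.985), with log2 fold changes of 0.12 and 0.15 against 0.56 for Prlr. For Gusb they were Sipa1l3, Wwc2 and Zfp775 (r = 0.987, 0.969 and 0.958).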

How the data were processed

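The authors deposited raw read counts per gene, 1 table per library with 54838 mouse Ensembl identifiers and 5 lines that name no gene. The submitters' processing notes list HTSeq 0.11.1, STAR 2.6.0, DESeq2 and fastp 0.19.5, with a human genome build although the identifiers are mouse. No source used here states the annotation or the strand setting. The 5 lines were left out; reads aligned to several places made up 22.5% to 29.6% of records, unassigned reads 2.57% to 3.41%, ambiguous reads 1.55% to 1.79%, unaligned reads 0.699% to 1.22% and low-quality alignments 0.127% to 0.151%. Symbols, positions and exon lengths came from GENCODE M21 (GRCm38), which named 54723 identifiers.

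Counts were tested in R 4.3.3 with edgeR 4.0.16 (TMM, filterByExpr with a minimum count of 10, robust quasi-likelihood F test, Benjamini-Hochberg over all tested genes, calls below 0.05). Standard errors are the log2 fold change divided by the root of F. Log2 CPM used a prior count of 2. Alternatives were DESeq2 1.42.0, limma-voom (limma 3.58.1), other scaling, no filter, a proximal tubule covariate and each library left out. The covariate of Y-linked genes was not run because all 6 libraries carry them. Replicates differed beyond sampling noise (chi-square per degree of freedom of at least 16.7). Members and lists were chosen with earlier results of these data known. Named genes are the 6 members, the sex-chromosome genes, up to 4 called and the 3 most abundant genes of each list. The positive genes of the female-enriched list and the 3 genes most like each member are named too. Of the genes this rule gives, 3 are not reported here.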

Additional observations from a re-analysis of the deposited data

How the results depend on the processing

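Other scaling and tools kept the sign of the 6 genes except that of Gusb, and the values below are those that changed by more than the replicate spread or, for counts, by more than 1.5 times. With library totals the log2 fold change of Gusb was 0.084, and the medians were -0.20 (steroid list), -0.018 (polyamine), 0.31 (prolactin receptor) and -0.022 (lysosomal, with 1 called higher). With no filter 463 genes were called lower and 497 higher, with 3 steroid genes lower, 1 prolactin receptor gene lower and 1 higher, and 1 lysosomal gene lower. DESeq2 called 966 genes lower and 1993 higher, with 14 male-enriched, 5 female-enriched, 4 steroid, 4 polyamine, 1 prolactin receptor and 3 lysosomal genes lower, and 1 prolactin receptor and 2 lysosomal genes higher. With the proximal tubule covariate 205 genes were called higher, 2 male-enriched, 1 female-enriched and 0 steroid genes lower, and 1 female-enriched and 2 lysosomal genes higher. The medians were then -0.53 (male-enriched), -0.15 (female-enriched), -0.0115 (steroid), -0.11 (polyamine), 0.030 (prolactin receptor) and 0.047 (lysosomal), and Kap, Odc1 and Prlr stood at -0.16, -0.041 and 1.60. The cause was not tested.

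With each library left out in turn, 1 to 1147 genes were called lower and 1 to 2266 higher. Lower calls ranged from 0 to 12 (male-enriched), 0 to 4 (female-enriched), 0 to 5 (steroid), 0 to 3 (polyamine), 0 to 1 (prolactin receptor) and 0 to 4 (lysosomal), and higher calls from 0 to 1 in the female-enriched, polyamine and prolactin receptor lists and from 0 to 2 in the lysosomal one. Medians ranged from -1.07 to -0.83, -0.75 to -0.45, -0.38 to -0.22, -0.21 to -0.067, 0.044 to 0.23 and -0.24 to -0.059 in the same order. Kap ranged from -0.98 to -0.60, Odc1 from -0.97 to -0.56, Gusb from -0.10 to -0.016, Azgp1 from -4.68 to -4.41, Prlr from 0.32 to 0.90 and Esr1 from -0.62 to -0.38. No paired analysis was possible because the labels give the groups no shared replicate numbers. The planned covariate of Y-linked genes was not run, since these were detected in all 6 libraries. Depth limits Azgp1 most, with 4 to 7 counts in each library labelled KO.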
